A study of Mus musculus with 4 samples.

Results

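The genes described here are 40 genes of the cell division cycle, 21 that act in S phase, when DNA is copied, and 19 that act around mitosis. They were chosen by gene name among the 23520 genes and other named features measured in sorted cells of mouse 4T1 tumours. A gene counted as measured when 2 or more of the 4 arrays gave a probe of its name a signal well above background, and the probe with the highest mean level stood for it. By this rule 39 of the 40 genes were measured, 20 of S phase and 19 of mitosis, and all 39 were well above background on all 4 arrays. Ccne2, which encodes cyclin E2, was well above background on 1 of the 4 arrays and has no value.

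4T1 is a mammary carcinoma line of BALB/c mice that forms tumours when implanted in that strain. The 4 samples were untreated tumours in BALB/C mice, from which cells were sorted with ALDEFLUOR, a fluorescent substrate of aldehyde dehydrogenase (ALDH), into a low-activity and a high-activity fraction. The groups were ZT0 ALDH-low, ZT0 ALDH-high, ZT12 ALDH-low and ZT12 ALDH-high, where ZT is zeitgeber time, counted from lights on. Each group was 1 one-colour Agilent array, so no difference given here has a replicate check, and how many mice or tumours stood behind an array is not given in the labels used here. In the sorted fractions, fewer dividing cells and less of a transcript per cell cannot be told apart.

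Before a cell copies its DNA, the origin recognition complex with CDC6 and CDT1 loads the MCM2 to MCM7 helicase at origins, and geminin blocks a further round of loading. CDC45 and the GINS complex then turn the helicase on, DNA polymerases copy the strands on the PCNA clamp, and ribonucleotide reductase and thymidylate synthase supply nucleotides. E2F factors, held back by the RB protein until cyclin-dependent kinases release them, switch on many of these genes. Mitotic genes come on later, through B-MYB and FOXM1 acting with the MuvB complex at CHR elements and NF-Y at CCAAT boxes.

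Promoters of the members were searched for these elements, since they are a property that the choice of the genes did not use. RefSeq promoter sequences of assembly GRCm38.p6, 250 bases before to 50 bases after a start, were found for 30 of the 40 members, 15 in each group. The E2F words searched were TTTCCCGC, TTTCGCGC, TTTGCCGC and TTTGGCGC, the CHR word was TTTGAA and the third was CCAAT, each on both strands, with overlapping matches counted separately. An E2F word was present in 8 of 15 S phase promoters and in 1 of 15 mitotic promoters, that of Cdk1, against 2.26% of 32851 RefSeq promoters of the same length. The CHR word was present in 1 of 15 S phase promoters, that of Mcm2, and in 10 of 15 mitotic promoters, against 17.9% of all promoters. CCAAT was present in 10 of 15 S phase and 13 of 15 mitotic promoters, against 37.4% of all promoters. Among other replication genes, a longer list used below, 6 of 32 promoters held an E2F word, 6 the CHR word and 16 CCAAT. Among other mitosis genes, 0 of 31 held an E2F word, 22 the CHR word and 23 CCAAT. For listed genes 1 promoter per gene was counted, while the set of all promoters was not reduced in this way. A match of letters is not a binding site, and a promoter without a match may still be bound.

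The 3 stretches below show each element upstream of the start of a member, with the matched letters in capitals, read 5′ to 3′ on the strand of the gene. That of Mcm5 (chr8:75109316-75109407, plus strand) holds 2 overlapping E2F words on opposite strands, 153 and 149 bases before the start. That of Cdk1 (chr10:69352913-69353023, minus strand) holds the CHR word 71 and 15 bases before the start. That of Ccnb1 (chr13:100786509-100786625, minus strand) holds CCAAT 99 and 67 bases before it. All coordinates of promoters are in GRCm38.p6.
Mcm5, E2F: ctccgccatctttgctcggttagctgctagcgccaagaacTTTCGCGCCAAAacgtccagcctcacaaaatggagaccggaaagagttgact
Cdk1, CHR: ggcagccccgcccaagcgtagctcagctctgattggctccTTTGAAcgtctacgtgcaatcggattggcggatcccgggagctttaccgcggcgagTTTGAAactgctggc
Ccnb1, CCAAT: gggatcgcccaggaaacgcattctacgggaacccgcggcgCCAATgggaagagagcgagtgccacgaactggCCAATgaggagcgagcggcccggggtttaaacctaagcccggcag

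A level below is the log2 processed signal of a probe minus the log2 75th percentile of its array, and a difference is one such level minus another of the same gene. Differences of at least 1 log2 unit are called 2-fold. That percentile lay between 156.3 and 458.8 intensity units, and between 55.8% and 60.6% of spots were well above background. Slide 1 carried the ZT0 pair and slide 2 the ZT12 pair, and time therefore cannot be told apart from slide. ZT0 ALDH-low and ZT12 ALDH-high lay at position 1 of their slides and the others at position 2, so a change of the ALDH difference between the times cannot be told apart from array position. Spike-in controls had slopes of 0.873 and 0.789 at position 1, and of 0.956 and 0.944 at position 2. The median difference of all features was -0.32 at ZT0 and 0.30 at ZT12, and with arrays scaled to their medians it was 0.17 and -0.57.

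At ZT0 the S phase genes were lower in ALDH-high than in ALDH-low cells, and the mitotic genes were lower by a smaller amount. The median difference was -1.42 over the 20 S phase genes and -0.79 over the 19 mitotic genes. Values lower by 2-fold or more were seen for 12 of 20 S phase genes (60%), above the 31.5% of all features, and for 3 of 19 mitotic genes (15.8%), below it. No member was at least 2-fold higher, against 20.5% of all features. At ZT12 the S phase genes were higher in ALDH-high cells, with a median of 0.79 and 6 of 20 at least 2-fold higher, a share near the 32.2% of all features. The mitotic genes had a median of 0.24 and 0 of 19 at least 2-fold higher. No member was at least 2-fold lower at ZT12, against 17.9% of all features.

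The direction at ZT0 held under all 8 alternatives of processing for both group medians. The direction at ZT12 did not, since arrays scaled to their medians gave -0.08 for the S phase median and -0.63 for the mitotic one, and left 8 of 20 S phase and 1 of 19 mitotic genes above 0. That scaling adds 0.48 to every ZT0 difference and -0.87 to every ZT12 difference given here, and signs of smaller differences than these depend on it. Background shares also moved with brightness. Among the 9670 features with a mean above the 75th percentile that were well above background on all arrays, 20.1% passed 2-fold as lower values at ZT0 and 13.1% as higher values at ZT12. The median of the mean level was 0.89 over S phase members, 1.04 over mitotic members and -0.73 over all features.

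**Figure D1:**
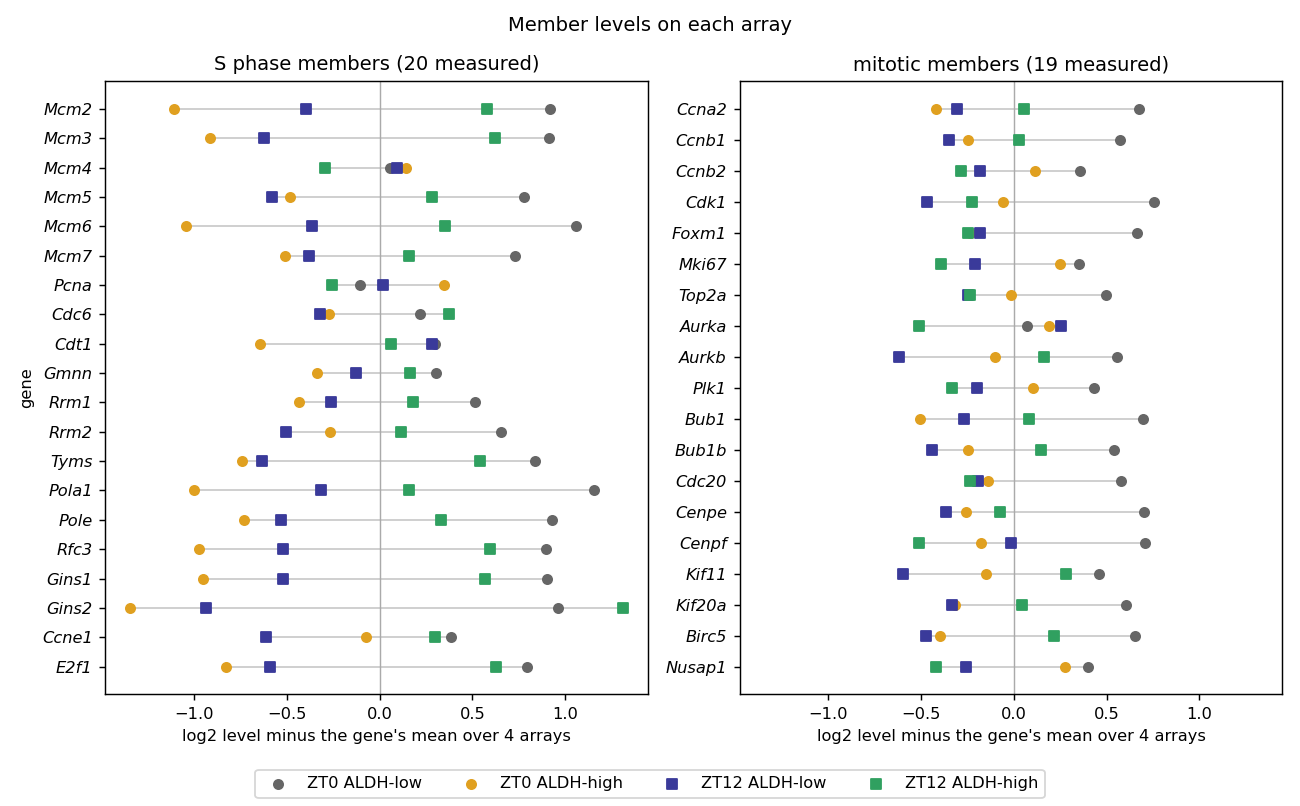
Level of each of the 39 measured members on the 4 arrays, in log2 units relative to the mean of the gene over the arrays, with S phase genes on the left and mitotic genes on the right. Circles are ZT0 and squares ZT12. ZT0 ALDH-low was the highest array for 16 of 20 S phase and 18 of 19 mitotic genes, against 6396 of 23520 features. ZT0 ALDH-high was the lowest for 14 S phase but 2 mitotic genes, against 5664 features. With arrays scaled to their medians the counts of members are 12, 11, 15 and 2, and those of all features 3745 and 5391.

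The replicative helicase is a ring of 6 subunits, MCM2 to MCM7, of which 5 followed the S phase median. Levels are given in the order ZT0 ALDH-low, ZT0 ALDH-high, ZT12 ALDH-low and ZT12 ALDH-high throughout. Mcm3 had levels of 3.33, 1.51, 1.80 and 3.04. Its differences were -1.83 at ZT0 and 1.24 at ZT12, so that both times passed 2-fold in opposite directions. Its 4 probes lay between -1.89 and -1.77 at ZT0 and between 1.17 and 1.41 at ZT12. The probe used lies at chr1:20793159-20793218 on the minus strand in mm9, the build of the array files.

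Mcm6 had levels of 3.97, 1.86, 2.55 and 3.26, with differences of -2.10 and 0.71. Mcm2 had levels of 0.28, -1.75, -1.04 and -0.06, with differences of -2.03 and 0.98. In both genes ZT0 ALDH-high was the lowest array and ZT0 ALDH-low the highest. Mcm5 gave -1.26 at ZT0 and 0.87 at ZT12, and Mcm7 gave -1.24 and 0.54. Mcm4, the remaining subunit, had levels of 2.69, 2.78, 2.73 and 2.34, within 0.44 log2 units over the arrays, and its differences of 0.09 and -0.39 ran against those of the other 5. These signs depended on the processing. The quantile normalized table of the authors gave -0.46 and 0.03, the signs of the other 5, and arrays scaled to their medians gave 0.57 and -1.26. Mcm4 rests on 1 probe.

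GINS, the complex that joins the helicase when it is activated, had 2 members here. Gins2 had levels of 1.60, -0.71, -0.30 and 1.95. Its differences of -2.31 at ZT0 and 2.25 at ZT12 were the lowest and the highest of all members at those times. Gins1 had levels of 0.10, -1.75, -1.32 and -0.23, with differences of -1.85 and 1.09. Both ALDH-high at ZT12 and ALDH-low at ZT0 were above the other 2 arrays for either gene. The Gins2 probe lies at chr8:123105259-123105318 on the minus strand in mm9.

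Of the polymerases, clamp and loader, 3 of 4 passed 2-fold at ZT0, all as lower values, against 31.5% of all features. Pola1, the catalytic subunit of the polymerase that starts strands, had levels of 0.20, -1.96, -1.27 and -0.80. Its difference of -2.15 at ZT0 came with 0.47 at ZT12. Pole, the catalytic subunit of the leading-strand polymerase, gave -1.66 and 0.86. Rfc3, a subunit of the loader that places PCNA on DNA, had levels of 1.52, -0.35, 0.10 and 1.22, with differences of -1.87 and 1.12.

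Pcna, the sliding clamp itself, stood apart from them with the processing as reported. It had levels of 3.92, 4.37, 4.04 and 3.77, and its differences of 0.45 at ZT0 and -0.27 at ZT12 had the opposite signs. Pcna was thus highest on ZT0 ALDH-high, the array on which 14 of 20 S phase genes (5664 of 23520 features) were lowest. These signs depended on the processing. The authors' table gave -0.168 and 0.165, the signs of the S phase medians, and arrays scaled to their medians gave 0.93 and -1.14. Pcna rests on 1 probe, at chr2:132075420-132075557 on the minus strand in mm9. RefSeq lists pseudogene copies of Pcna, whose part in the signal was not tested.

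The genes that license origins differed least between the fractions among the S phase roles, with 0 of 3 past 2-fold in any comparison. Cdt1, which loads the helicase, had levels of 2.79, 1.85, 2.77 and 2.56. With the processing as reported, it was lower in ALDH-high cells at both times, by -0.94 and -0.22, and no other S phase gene was. This depended on the processing. At ZT12 Cdt1 gave 0.17 with normexp and quantile, and 0.20 with quantile and with the authors' table. Spike-in slope scaling gave 0.30. With arrays scaled to their medians, 12 of 20 S phase genes were below 0 at ZT12. Mcm5, Mcm6, Mcm7, Cdc6, Gmnn, Rrm1, Rrm2, Pola1 and Pole were then lower at both times, as was Cdt1. Cdc6, the partner of Cdt1 in loading, gave -0.49 and 0.69, and the dimmer of its 2 probes gave -0.15 and -0.07. Gmnn, which encodes geminin, gave -0.64 and 0.29. The authors' table put it at -1.11 at ZT0, so that Cdt1 and Gmnn passed 2-fold there.

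Nucleotide supply followed the median, with ribonucleotide reductase below it in size. Tyms, thymidylate synthase, had levels of 1.79, 0.21, 0.32 and 1.49, with differences of -1.58 and 1.17. Rrm1, the large subunit of the reductase, gave -0.95 and 0.44. Rrm2, its small subunit, gave -0.92 and 0.62.

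The regulators of entry into S phase were E2f1 and Ccne1. E2f1, a factor that turns on replication genes, had levels of 0.32, -1.31, -1.07 and 0.15, with differences of -1.62 and 1.22. Ccne1, cyclin E1, the partner of CDK2 at the entry into S phase, had levels of 0.61, 0.15, -0.38 and 0.53. Its differences were -0.46 and 0.91, so that unlike E2f1 it differed more at ZT12. In all, 6 genes passed 2-fold in opposite directions at the 2 times: Mcm3, Tyms, Rfc3, Gins1, Gins2 and E2f1, all of S phase. They were 6 of 39 members and 6 of 20 S phase genes. Among all features, 4803 of 23520 were likewise at least 2-fold lower at ZT0 and at least 2-fold higher at ZT12. That share lay above the share of the members and under that of the S phase genes.

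Mitotic cyclins and their kinase were lower in ALDH-high cells at ZT0 and close to ALDH-low cells at ZT12. Ccna2, cyclin A2, which acts in S phase and G2 as well, had levels of 1.77, 0.68, 0.79 and 1.15, with differences of -1.10 and 0.36. Ccnb1, cyclin B1, had levels of 1.61, 0.79, 0.69 and 1.06, with differences of -0.82 and 0.38. Ccnb2, cyclin B2, gave -0.24 and -0.10. Cdk1, the kinase that cyclin B activates, had levels of 0.20, -0.62, -1.03 and -0.79. Its level on ZT0 ALDH-low was above the other 3 arrays, and its differences were -0.82 and 0.24. Foxm1, the factor that switches on late cell cycle genes, gave -0.90 and -0.06.

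The mitotic kinases did not move as a block. Aurka, aurora kinase A of the spindle poles, had levels of 2.13, 2.25, 2.31 and 1.55. With the processing as reported, it was the 1 mitotic gene above 0 at ZT0, with 0.12. It then also had the lowest value of all members at ZT12, -0.76. Aurkb, aurora kinase B of the chromosomal passenger complex, had levels of 0.07, -0.59, -1.11 and -0.32, with differences of -0.66 and 0.78. Birc5, survivin, a partner of aurora B in that complex, gave -1.05 and 0.69. Plk1, polo-like kinase 1, gave -0.33 and -0.14. Both passenger complex genes were thus lower at ZT0 and higher at ZT12, and Aurka and Plk1 were not. These patterns depended on the processing. Arrays scaled to their medians put the passenger complex genes at -0.09 and -0.19 at ZT12. The authors' table put Plk1 at -0.85 and 0.22, the signs of the passenger complex genes, and Aurka at -0.38 and -0.42.

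Among the genes of the spindle checkpoint, Bub1 had levels of -0.21, -1.41, -1.17 and -0.82. Its difference of -1.20 was the lowest of the mitotic genes at ZT0, and at ZT12 it was 0.35. Bub1b, which encodes BUBR1, gave -0.79 and 0.59. Cdc20, which activates the anaphase-promoting complex, gave -0.72 and -0.04, and its other probe gave -0.76 and 0.49.

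Of the spindle genes, Kif11, the motor that pushes spindle poles apart, had levels of -1.64, -2.24, -2.69 and -1.81. Its difference at ZT12, 0.88, was the highest of the mitotic genes with the processing as reported, against -0.61 at ZT0. Kif11 had the lowest level of all members on each array, and its value at ZT12 depended on the processing. The authors' table gave 0.22, where Birc5 had 1.11, and arrays scaled to their medians gave 0.01. The kinetochore motor Cenpe gave -0.96 and 0.29, and the late mitotic motor Kif20a gave -0.92 and 0.38. Nusap1, a microtubule-binding protein of the spindle, gave -0.13 and -0.16. Nusap1 shared this small difference with Mki67, which encodes the proliferation marker Ki-67 and had levels of 3.19, 3.09, 2.63 and 2.45, with differences of -0.10 and -0.18. For both genes the ZT0 array was above the ZT12 array in either fraction, but in ALDH-low cells arrays scaled to their medians gave ZT12 minus ZT0 values of 0.27 for Mki67 and 0.16 for Nusap1.

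Top2a, the topoisomerase that untangles sister chromatids, had levels of 2.14, 1.63, 1.40 and 1.41, with differences of -0.51 and 0.01. Its 4 probes disagreed most among the members: one gave -1.38 at ZT0 and 1.79 at ZT12, a pattern like that of the S phase genes. Cenpf, a kinetochore protein, gave -0.88 and -0.49, but its dimmer probe gave -1.57 and 0.82. Of the 18 members with several usable probes, all 18 had probes of 1 sign at ZT0, and 14 did at ZT12, with Ccnb1, Cdc20, Cdc6 and Cenpf as the exceptions.

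**Figure D2:**
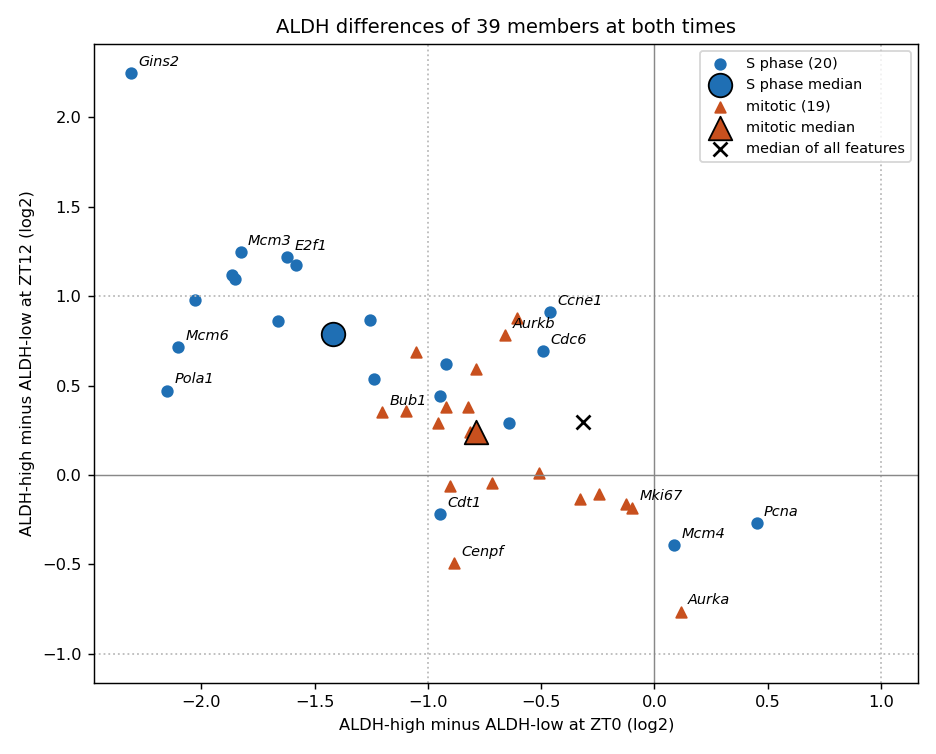
ALDH-high minus ALDH-low differences of the 39 members in log2 units, ZT0 on the horizontal and ZT12 on the vertical axis, with S phase genes as circles, mitotic genes as triangles and group medians as large symbols. Dotted lines mark 2-fold. The S phase median lies at -1.42 and 0.79 and the mitotic median at -0.79 and 0.24; Pcna, Mcm4 and Aurka lie at the lower right. Scaling to array medians would shift every point right by 0.48 and down, by -0.87.

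The gap between the groups within a comparison does not depend on a constant that scales 1 array against another, because both groups shift by the same amount. The S phase median minus the mitotic median was -0.63 at ZT0 and 0.55 at ZT12. At ZT0, 15 of 20 S phase genes lay below the mitotic median and 0 of 19 mitotic genes lay below the S phase median. At ZT12, 17 of 20 S phase genes lay above the mitotic median, and 1 of 19 mitotic genes, Kif11, lay above the S phase median. With the authors' table Kif11 (0.22) lay below the S phase median (0.93) and Birc5 (1.11) above it. The gap kept its sign at both times under all 8 alternatives, from -0.79 to -0.53 at ZT0 and from 0.47 to 0.69 at ZT12. The lists were not tested against each other, since genes of 1 array are not replicates.

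Between times the groups separated in the ALDH-high cells and less so in the ALDH-low cells. In ALDH-low cells the ZT12 minus ZT0 median was -1.34 for S phase and -0.92 for mitotic genes, a gap of -0.41. There 13 of 20 S phase and 5 of 19 mitotic genes were at least 2-fold lower at ZT12, against 32.7% of all features, and 0 of 39 members were at least 2-fold higher, against 17.5%. In ALDH-high cells the medians were 0.92 and -0.01, a gap of 0.93. There 10 of 20 S phase and 0 of 19 mitotic genes were at least 2-fold higher at ZT12, against 32.5% of all features, and 0 of 39 members were at least 2-fold lower, against 20.8%. Scaling to array medians adds 0.82 to every difference over time in ALDH-low cells and -0.53 in ALDH-high cells. It gave S phase medians of -0.51 in ALDH-low and 0.38 in ALDH-high cells, and mitotic medians of -0.10 and -0.54. These comparisons share arrays with those of the ALDH fractions, so they are the same 4 levels read another way.

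Examples from each group show the difference between the fractions over time. In ALDH-low cells Gins2 differed by -1.90 between the times and in ALDH-high cells by 2.66. Cdk1 gave -1.22 and -0.17 in the same comparisons. Kif11 gave -1.06 and 0.43. Pola1 gave -1.47 and 1.16. Gins2 and Pola1 thus had opposite signs in the fractions. In ALDH-low cells 18 of 19 mitotic genes were lower at ZT12, with Aurka (0.18) as the exception, and 11 of 19 were lower with arrays scaled to their medians. In ALDH-high cells all 19 were within 0.70 log2 units of ZT0 on the 75th percentile scale.

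The order of the arrays described the same contrast. For 17 of 20 S phase genes both ZT0 ALDH-low and ZT12 ALDH-high, the position 1 arrays, were above the other 2 arrays, which held for 9 of 19 mitotic genes and for 47.9% of all features. With arrays scaled to their medians it held for 7 of 20 S phase and 0 of 19 mitotic genes, and for 26.9% of all features. Between the arrays of 1 position the groups differed less: ZT12 ALDH-high minus ZT0 ALDH-low had a median of -0.32 for S phase and -0.64 for mitotic genes, and ZT0 ALDH-high minus ZT12 ALDH-low had -0.21 and 0.11. The lowest array was ZT12 ALDH-low or ZT12 ALDH-high for 17 of 19 mitotic genes but for 6 of 20 S phase genes, against 12984 of 23520 features. With arrays scaled to their medians it was so for 17 mitotic and 5 S phase genes, against 12318 features. The range over the 4 arrays had a median of 1.47 for S phase and 0.94 for mitotic genes, against 1.53 for all features.

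**Figure D3:**
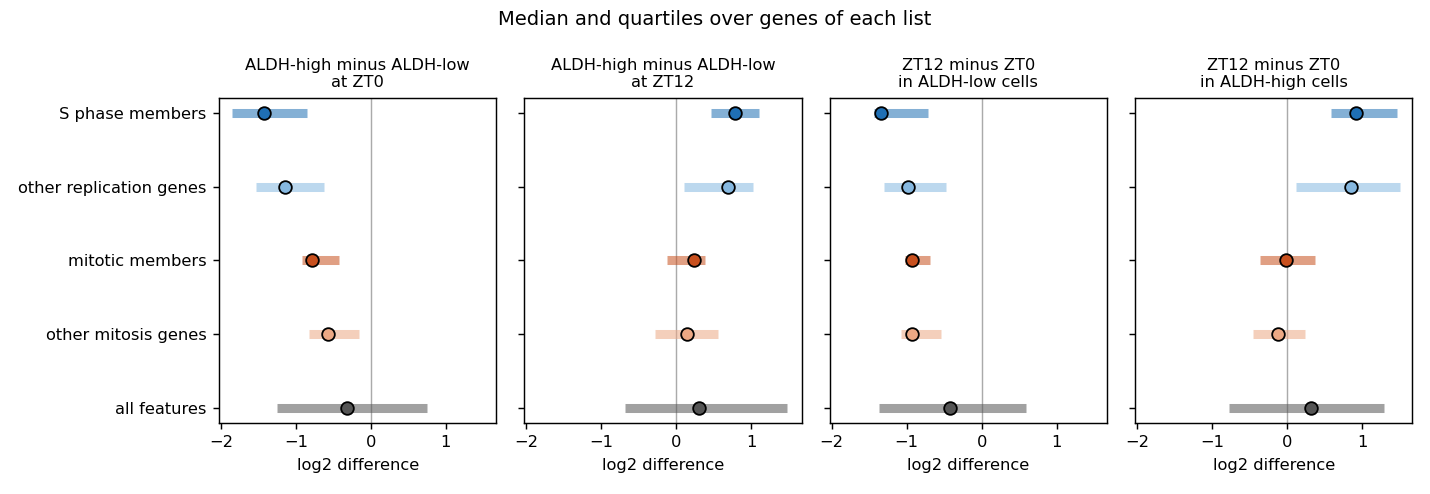
Medians (points) and quartiles over genes (bars) of the log2 differences in the 4 comparisons, for S phase and mitotic members, for the longer lists of other replication and mitosis genes, and for all features. The other replication genes lie nearer the S phase than the mitotic members in 3 of the panels; in ALDH-low cells over time their median, -0.98, lies beside those of the mitotic members (-0.92) and the other mitosis genes (-0.93).

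Further genes of both processes, 40 on each list and all measured, were set beside the members. The other replication genes had medians of -1.14 at ZT0 and 0.70 at ZT12. At least 2-fold lower at ZT0 were 22 of 40 (55%, against 31.5% of all features), and 10 of 40 were at least 2-fold higher at ZT12 (25%, under the 32.2% of all features). The other mitosis genes had medians of -0.57 and 0.15, with 8 of 40 and 5 of 40 in the same directions, both under the shares of all features. Both ZT12 medians fall below 0 when arrays are scaled to their medians. The gap between these lists was -0.57 at ZT0 and 0.55 at ZT12, near that of the members. Over time it was -0.05 in ALDH-low and 0.98 in ALDH-high cells.

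Among the other replication genes, Pole2, a polymerase epsilon subunit, had levels of 2.55, -0.70, -2.81 and 3.42, with differences of -3.26 and 6.22. Rpa2, of the single-strand binding complex, gave -1.69 and 3.66. Pold2, a polymerase delta subunit, gave -2.59 and 0.77. Slbp, which binds histone mRNA, ran the other way with 1.98 and -1.19, as did Timeless, a fork protection gene (0.70 and -0.68), and Rfc2 (0.73 and -0.38).

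Among the other mitosis genes, the lowest at ZT0 were Dlgap5, a spindle protein, with -1.73 and 3.05, and Anln, which encodes anillin of the cleavage furrow, with -1.55 and -0.94. Ndc80, of the kinetochore, gave -1.30 and 2.50. Cdc25b, a phosphatase that activates CDK1, gave 2.04 and -1.90, and Cks2, a small subunit of CDK complexes, gave 1.65 and -1.88. Both lists thus held genes that ran against their median.

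The genes that open or close the way into S phase were also measured. Of 18 cyclin D, kinase, MYC, E2F and RB family genes, 5 were at least 2-fold lower (27.8%, against 31.5% of all features) and 6 at least 2-fold higher (33.3%, against 20.5%) at ZT0, with a median of -0.06, and the median at ZT12 was -0.12. Ccnd1, cyclin D1, had levels of 3.43, 0.17, 2.49 and 2.57, with differences of -3.26 and 0.08. Cdk4, its kinase, gave -2.13 and 0.72, and Myc gave -2.70 and 0.84. Ccnd3, cyclin D3, had levels of 4.42, 7.17, 6.37 and 4.40, with differences of 2.75 and -1.97, opposite to Ccnd1 at ZT0. Ccnd2 gave -0.20 and 1.14, E2f2 gave 1.74 and -0.84, and Rb1 gave 1.25 and -0.97.

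Inhibitors of the cell cycle ran opposite to the S phase genes. At ZT0 the 19 inhibitors had a median of 2.07, with 12 past 2-fold as higher (63.2%, against 20.5% of all features) and 3 as lower values in ALDH-high cells. At ZT12 their median was -1.67, with 10 lower (52.6%, against 17.9%) and 2 higher by that measure. Cdkn1a, the CDK inhibitor p21, had levels of 2.83, 5.01, 5.04 and 3.37, with differences of 2.18 and -1.67. Cdkn1b, p27, gave 2.16 and -1.89. Btg2, an antiproliferative gene, gave 3.50 and -2.32, and Mxd1, a MYC antagonist, gave 4.10 and -3.23. Trp53inp1, a p53 target, gave 3.46 and -2.63. Not all ran this way: Wee1, which inhibits CDK1, gave -2.04 and -0.48, Cdkn2c gave -1.78 and 0.15, and Trp53 gave -0.82 and 1.20. Cdkn2b gave 0.36 and 0.46.

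Medians of several lists of cell type markers had the same signs as those of the S phase genes. Only markers well above background on all 4 arrays are counted here, and counts are of differences of at least 2-fold. Of all features, 31.5% were lower and 20.5% higher by that measure at ZT0, and 32.2% were higher and 17.9% lower at ZT12. The 13 epithelial and tumour cell markers of 15 on the list were all lower in ALDH-high cells at ZT0, with a median of -3.57. At ZT12 their median was 0.55, smaller than the -0.87 that scaling to array medians adds, and 2 of the 13 were higher. Their summed level, in multiples of the 75th percentile, was 205.6, 13.0, 90.1 and 99.6 over the 4 arrays. The 15 of 17 T and NK cell markers had medians of -2.38 and 3.65, with 12 lower and 2 higher (Cd3d and Cd4) at ZT0 and 13 higher at ZT12. They summed to 52.2, 27.9, 13.7 and 67.1. The 8 of 10 B cell markers had medians of -3.98 and 5.12, with 7 in each direction, and summed to 32.4, 5.36, 1.78 and 41.1. Of 12 erythroid markers 5 were usable, with 3 lower at ZT0, and with 4 higher and 1, Tfrc, lower at ZT12. They summed to 844.5, 3.97, 4.86 and 283.5. Alas2, which makes haem in red cells, and Slc4a1 and Gata1 were well above background on 2 arrays each. The 10 macrophage markers had medians of -2.09 and 2.03, with 7 in each direction, and summed to 405.2, 204.7, 219.9 and 519.4.

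By their medians, 2.83 and -1.18, neutrophil markers ran with the inhibitors. At ZT0 8 of 14 were at least 2-fold higher (57.1%, against 20.5% of all features) and 1 was lower by that measure. At ZT12 7 of 14 were at least 2-fold lower (50%, against 17.9%) and 2 were higher. Their sums were 2338, 3625, 2151 and 3137, so that on this scale the sum at ZT12 was higher in ALDH-high cells, against the median. The bright markers S100a9 and Csf3r gave -0.26 and 1.27, and -0.72 and 1.70. The 7 of 8 fibroblast markers counted had medians of -0.12 and -0.18, and the 4 endothelial markers measured had -0.65 and 0.53. The part of these cell types in the differences of the replication and mitosis genes was not tested.

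A fit with ALDH fraction and time over all 4 arrays was the test used; since time and slide coincide, it compares the fractions within slides. Its ALDH term had medians of -0.23 for S phase and -0.25 for mitotic genes. The limma fit called 0% of features, 0 of 23520, at an adjusted p of 0.05, and therefore 0 of 39 members, with 7 features at an unadjusted p under 0.05. Its single residual degree of freedom is the change of the ALDH difference between the times. The fit pooled this spread over all features, so the standard error was the same 1.54 log2 units for each member. With that pooled error a first call would have needed a difference of 7.31.

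**Figure D4:**
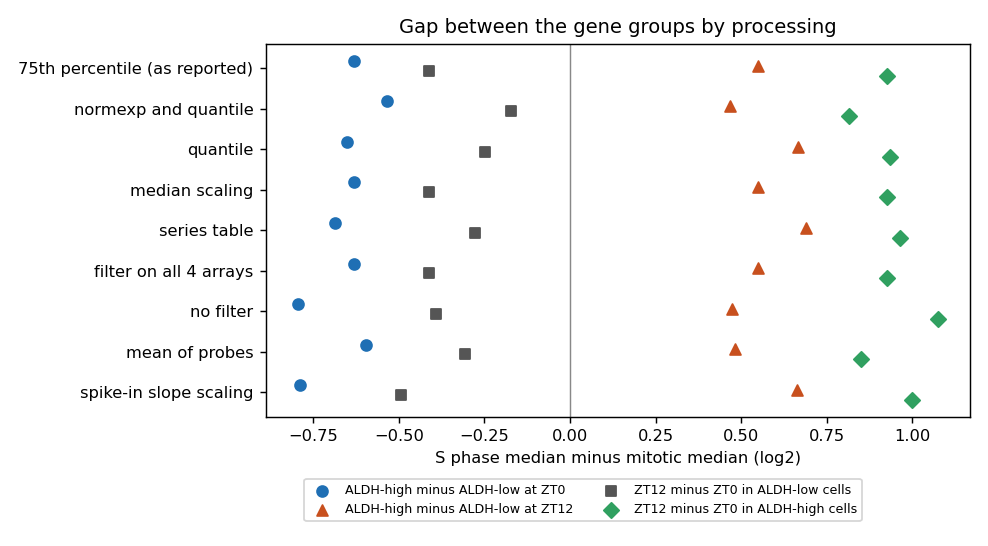
S phase median minus mitotic median, in log2 units, in the 4 comparisons (symbols) under the processing as reported and 8 alternatives (rows). The gap is below 0 at ZT0 and in ALDH-low cells over time, and above 0 at ZT12 and in ALDH-high cells over time, in each of the rows. The rows of median scaling and of the filter on all 4 arrays equal the reported row by construction.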

How the data were processed

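Per the file headers, the authors read each scan with Agilent Feature Extraction 10.7.1.1 (the submitters' processing notes give 9.5.1.1) on a design whose grid names build mm9. The deposited processed signal is an intensity, corrected for background within each array and not normalized between arrays. The deposited table of the authors for the series holds quantile normalized intensity values and served as an alternative.

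Control and outlier spots were left out, log2 signals were averaged per probe, and the log2 75th percentile of the array was subtracted. A signal well above background on 2 or more arrays was required, which 34574 of 56605 probes had. Of 70 member probes 64 passed. The number of arrays limits the precision. Differences of 1 log2 unit were called 2-fold, and an additive fit was run with limma 3.58.1 in R 4.3.3 (Benjamini-Hochberg over 23520 features, two-sided) after a check on simulated arrays. Its p-values measure only the spread between these 4 arrays. Python 3.11.15 with pandas 2.3.3 and matplotlib 3.10.9 did the rest. Alternatives were normexp (offset 50) with quantile, quantile alone, median scaling, the series table, filters on all 4 arrays and none, the mean of probes, array position in place of time, each array left out, and, added after the data were seen, division by the spike-in slope. All 40 members are reported by role. Of the other cell cycle lists, the 2 highest and 2 lowest genes at each time are named if all arrays gave them a signal well above background, and Ccnd1, Cdk4, Rb1, Myc, Cdkn1a, Cdkn1b and Btg2. A printed promoter is that of the first member in list order whose ALDH differences had the signs of its group at both times and that held the motif upstream of the start. Members and lists were chosen with earlier results of these data known. Exon and UTR positions of probes were not analysed here.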

Additional observations from a re-analysis of the deposited data

Results flagged for a closer look

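The ALDH difference pointed in opposite directions at ZT0 and ZT12 for several members, and none of these changes was tested, because the change is the residual of the fit and coincides with array position. The difference at ZT12 minus that at ZT0 was 4.56 log2 units for Gins2, 3.07 for Mcm3, 2.98 for Rfc3, 2.95 for Gins1, 2.84 for E2f1 and 2.75 for Tyms. As a median it was 2.32 over the S phase genes and 1.06 over the mitotic genes. Of all features 84.2% had opposite signs at the 2 times, against 95.0% of S phase and 63.2% of mitotic genes.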

How the results depend on the processing

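Of 199 recomputed values, 167 kept their side of the limits used (2-fold for a median, 1.5 times the reported value for a count or gap). Of the 122 medians and gaps among them, 10 changed sign. Median scaling turned both medians at ZT12, to -0.08 for S phase and -0.63 for mitotic genes. The mitotic median over time in ALDH-high cells, -0.01, was above 0 with 5 alternatives (at most 0.19). The other 3 came from arrays left out, where 3 arrays allowed a fit with the ALDH term alone and 1 fraction held 1 array, assumed to vary like the other. In those fits the S phase median ran from -0.90 to 0.33, above 0 without either ZT0 array, and the mitotic median from -0.69 to 0.14, above 0 without ZT0 ALDH-low. All fits called 0 features. Among the members, Ccne2 alone had too little signal for a value. The cause of the changes below was not tested.

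Scaling to array medians gave an S phase median of -0.94 at ZT0 with 0 mitotic genes at least 2-fold lower. It left 1 S phase gene at least 2-fold higher at ZT12. Over time it gave -0.51 for the S phase median in ALDH-low cells, with 1 S phase and 0 mitotic genes at least 2-fold lower, and 4 S phase genes at least 2-fold higher in ALDH-high cells. Mitotic genes at least 2-fold lower at ZT0 numbered 6 with quantile, 8 with the series table and 8 with spike-in slope scaling. In ALDH-low cells over time they numbered 11 with quantile, 12 with the series table, 8 with the mean of probes and 9 with spike-in slope scaling, and their median was -1.06 with quantile and -1.09 with the series table. The gap in those cells was -0.17 with normexp and quantile and -0.25 with quantile. In ALDH-high cells over time the S phase median was 1.04 with quantile, 1.07 with the series table, 1.07 with no filter and 1.19 with spike-in slope scaling. Spike-in slope scaling put the S phase median at ZT12 at 1.08, with 12 genes at least 2-fold higher. With normexp and quantile, quantile, the series table and spike-in slope scaling, 1 mitotic gene was at least 2-fold higher at ZT12 and 1 in ALDH-high cells over time.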

Other observations

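Brighter members tended to have higher signed ALDH differences at ZT0 and lower ones at ZT12. Over the 39 members, Pearson's r between the mean level and the ALDH difference was 0.33 at ZT0 and -0.36 at ZT12, and over all features it was 0.25 and -0.32. The genes share the same 4 arrays, so these values are descriptions. The difference at ZT0 and that at ZT12 had an r of -0.75 over the members and -0.75 over all features. With array position in place of time, a fit whose median standard error was 0.30 log2 units, limma again called 0 features, with 1915 at an unadjusted p under 0.05. The lowest member p was that of Pola1, 0.0386 before and 0.608 after Benjamini-Hochberg adjustment in that limma fit.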
